A study of Zea mays with 12 samples.

Results

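The AP2 and ethylene-responsive transcription factors of maize roots were described in 4 nutrient regimes. The members were taken by text: rows whose description names AP2, EREBP, an ethylene-responsive factor or a protein that binds the drought-response element (DRE), or whose symbol starts with ereb or dreb, leaving out WRKY and MYB descriptions. This gave 91 of 37385 listed genes. Of these, 83 are described as AP2/ERF transcription factors, 3 as an ethylene-responsive protein with no mention of DNA binding, and 5 share only letters with the search terms (BAP2, a CCAAT-HAP2 factor, an RPAP2-like phosphatase and a pair of SNAP33 proteins). The libraries hold root RNA of maize labelled inbred line DengHai605 at an age of 40 days, 3 libraries per group. The control received normal potassium (K), nitrogen (N) and phosphorus (P), and each other group was deficient in 1 of the 3. How the deficiencies were imposed and for how long is not given in the sources used here. Replicates carry the labels 1_3, 4_6 and 7_9 in every group and are not tied to separate plants, so p-values measure only the spread between these libraries, which may be technical. Values are FPKM, which scales fragments to transcript length and library size. The mean normalised counts that the authors deposited per group summed to 16996670 to 18290474.

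AP2/ERF proteins carry a plant DNA-binding domain first described in the floral gene APETALA2. Ethylene-responsive factors (ERFs) bind the GCC box in promoters of defence and hormone genes, and some of them act at the end of the ethylene pathway, in which ethylene bound to its receptors lets EIN2 act on the EIN3 family, which switches on ERF genes. DREB proteins bind the DRE, found in many genes of drought and cold response, dehydrins among them. The AP2-type members have roles in development: in Arabidopsis TOE3 belongs to the repressors of flowering that a microRNA targets, and WRI1 drives fatty acid synthesis in seeds.

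Of the 91 members, 82 reached an FPKM of 0.5 in 3 or more of the 12 libraries and were tested, among them 74 of the 83 factors. The other 9, all factors, reached at most 0.988 FPKM in any library, and EREB203 was listed at 0 in all 12. EREB26 (gene 100384463), one of the 9, is named after its values were seen: it had 0.988, 0.377 and 0.607 FPKM in the control and 0.17, 0.0698 and 0.114 in K deficiency. The corresponding values were 0.0342, 0.211 and 0.14 in N deficiency and 0.0725, 0 and 0 in P deficiency. Every deficient library lay below every control library. It passed as lower in all 3 deficiencies in the authors' deposited table (adjusted p = 0.0345, 0.042 and 0.00128), where its mean normalised count in the control was 21.2 to 22.1. It also passed in limma with no filter on low values (adjusted p = 0.0192, 0.0104 and 0.00382). The 74 tested factors had a median level of 19.5 FPKM (mean over 12 libraries), against 7.005 FPKM for all 24311 tested genes, and 17 of them averaged at least 100 FPKM. The most abundant were LOC100283357 (gene 100283357), with an AP2 domain, from 226 to 957 FPKM over the 12 libraries (median 514), LOC100281138, an ethylene-responsive element binding protein, from 302 to 682 FPKM over the 12 libraries (median 527), and EREB92 (gene 100280582), described as ethylene-responsive transcription factor 4, from 370.2 to 638 FPKM over the 12 libraries (median 526). In EREB36 (gene 100272507) the range was 189.8 to 490.1 FPKM over the 12 libraries (median 366), and in pco094376 (gene 100280553; DBP2 in RefSeq) 188 to 298 FPKM over the 12 libraries (median 249). LOC100304148, also described as ethylene-responsive transcription factor 4, ranged from 267 to 492 FPKM over the 12 libraries (median 351). These 6 are the 3 most abundant of the ethylene-responsive factors and of the other AP2-domain genes, not the 6 most abundant of all factors. None of these 6 passed the test in any deficiency against the control. LOC100281797, an abundant ethylene-responsive factor outside them, was called higher in N deficiency (limma adjusted p = 0.0432), a call that did not hold in several fits (given below). In the deposited annotation 61 of the 83 factors carry ethylene-activated signalling, 19 defence response and 11 response to water deprivation.

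**Figure D1:**
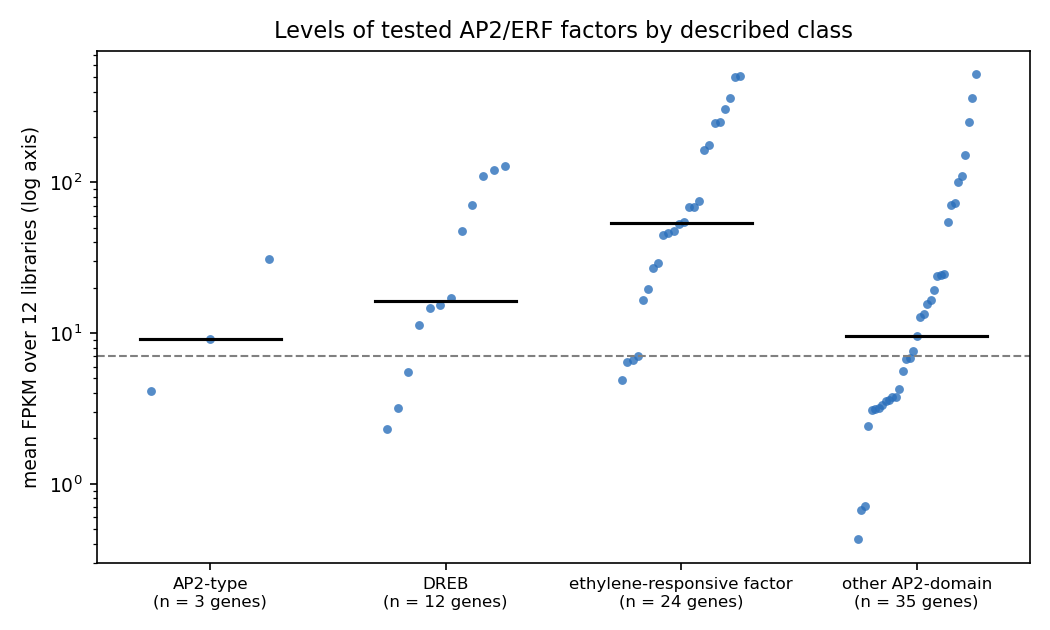
Mean FPKM over 12 libraries (log axis) of each tested AP2/ERF factor, by the class its description gives; points are genes, solid bars class medians, and the dashed line is the median of all 24311 tested genes. The ethylene-responsive factors sit highest, with a median of 53.5 FPKM.

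The libraries were checked against tissue markers. Root markers (nitrate transporters of high affinity, cortical cell-delineating proteins, nicotianamine synthases and others) summed to 245 to 444 FPKM in the control and 362 to 475, 659 to 1210.5 and 571 to 605 FPKM with K, N and P deficiency. Leaf markers (light-harvesting proteins, Rubisco small subunits, C4 enzymes) summed to 25.5 to 43.8 FPKM in the control and 19.6 to 26.6, 16.8 to 18.1 and 22.9 to 27.4 FPKM in the same order, with 11 of 22 below 1 FPKM in every library. Seed markers, zeins and oleosins, summed to 29.2 to 67 FPKM in the control and 0.843 to 3.32 FPKM in the deficient libraries. Of the 27 genes, 18 were at 0 and 24 below 1 FPKM in all libraries, and 2 were tested. This sum thus rests on few genes and does not describe the list as a whole. The seed sums in every deficiency, the root sums in N and P deficiency and the leaf sum in N deficiency did not overlap the control. The root sum in K deficiency and the leaf sums in K and P deficiency did. Of 14 tested root markers, 1 rose and 0 fell in K deficiency, and 5 rose and 1 fell in N deficiency. In P deficiency 3 rose and 3 fell, so the rise of the sum was not shared across the list. The shares called were 7.14%, 42.86% and 42.86% in K, N and P deficiency, beside 8.72%, 19.0% and 23.4% of all tested genes. The root list holds nrt2 and nrt2.2, nitrate transporters that themselves rose in N deficiency (log2 4.09 and 3.68, limma adjusted p = 7.82e-07 for both). In P deficiency both were called lower (log2 -0.97 and -0.68, limma adjusted p = 0.00982 and 0.0273), but not at a pseudocount of 10. The call of nrt2.2 in P deficiency was also lost in 5 of 6 fits without 1 library (adjusted p 0.0519 to 0.0936). The authors' deposited table did not call nrt2.2 there (adjusted p = 0.232). The part of these lists in the results below was not tested. In bulk RNA, fewer cells of a type and less RNA per cell cannot be told apart.

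On the log2(FPKM + 1) scale the factors varied more between replicates than the typical gene. The SD within groups had a median of 0.37 over the 74 factors and 0.23 over all tested genes. This is not matched for level: that scale narrows the spread of low genes, and the median levels were 19.5 and 7.005 FPKM. Within a group the same libraries were often at the end of the range. Control 4_6 was the highest control library for 35 of 74 factors (47.3%), against 23.9% of all tested genes. It was also the lowest for 28 factors (37.8%), against 47.1% of all genes. K deficiency 1_3 was the lowest of its group for 37 factors, against 23% of all genes, and the highest for 19 (25.7%), against 49.5%. Among the 16 factors with the widest spread, a set chosen on these values and therefore a description, control 4_6 was highest in 12, K deficiency 1_3 lowest in 13, N deficiency 7_9 highest in 10 and P deficiency 7_9 highest in 11. N deficiency 7_9 was the highest of its group for 45.9% of the 74 factors and 24.4% of all tested genes. For P deficiency 7_9 these shares were 41.9% and 23.2%.

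Values of ERF1 (gene 542184), an ethylene-responsive factor, were 46.6, 132 and 35.1 FPKM in the control and 11.6, 28.3 and 27.2 in K deficiency. The N deficient libraries had 27.8, 71.6 and 40.3, and the P deficient ones 49.8, 41.9 and 61.8. LOC100280788, an ethylene-responsive element binding protein, had 53.2, 177 and 42.7 FPKM in the control and 7.68, 36.5 and 34.2 in K deficiency. N deficiency gave 53.2, 71.1 and 133 FPKM, and P deficiency 65.9, 74 and 149 FPKM. LOC100281871, a DREB described as 1B, had 19, 60.2 and 9.83 FPKM in the control and 1.5, 6.75 and 5.78 in K deficiency. It stood at 5.86, 7.64 and 22.1 in N deficiency and at 16.2, 18.8 and 30.9 in P deficiency. In all 3 genes control 4_6 stood more than 2-fold above the other control libraries and K deficiency 1_3 was the lowest of its group. None of them passed in any deficiency against the control. For K deficiency the 95% intervals of the log2 fold change, not adjusted for the number of genes, were -2.57 to -0.41, -3.15 to -0.32 and -3.64 to -0.79 (limma adjusted p = 0.0908, 0.13 and 0.058). A second set moved with other libraries: EREB60, LOC100384725, LOC100383396 and LOC100279914 were lowest in P deficiency 1_3 and highest in P deficiency 4_6 within that group. The labels tie no batch to these libraries.

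**Figure D2:**
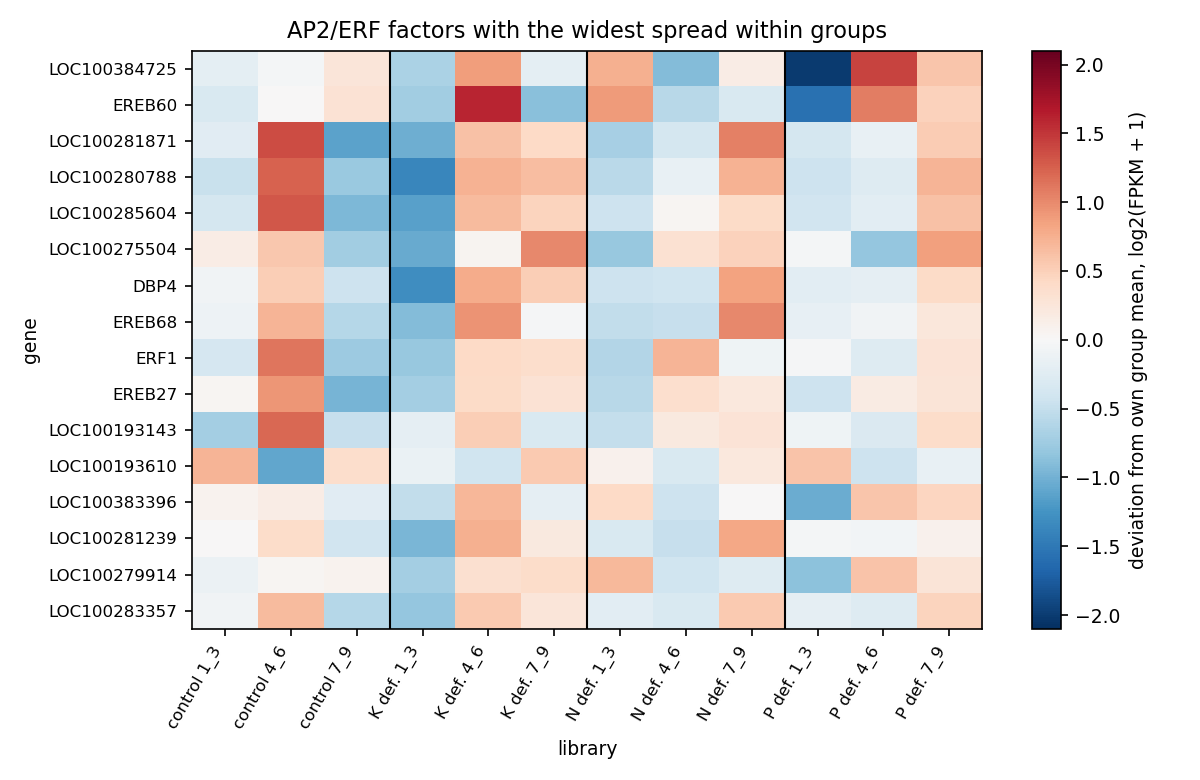
Deviation of each library from the mean of its own group, on the log2(FPKM + 1) scale (colour), for the 16 tested AP2/ERF factors with the widest spread within groups (rows) in 12 libraries (columns, groups set off by lines). Control 4_6 is above its group mean and K deficiency 1_3 below in most rows.

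By counts, the family stood close to the background of all genes. The test was limma on log2(FPKM + 1) with p-values adjusted over all 24311 tested genes and a threshold of 0.05, and its fold changes understate those of genes with low values. Beside each fold of mean FPKM stands the log2 fold change on that scale with its standard error. In K deficiency 4 of 82 tested members rose and 2 fell, 7.32% together, where 8.72% of all tested genes were called. In N deficiency 9 rose and 8 fell, 20.73% against 19.0% of all genes, and in P deficiency 8 rose and 8 fell, 19.51% against 23.4%. The median log2 fold change of the tested members was -0.03, 0.18 and 0.09 in K, N and P deficiency, beside 0.07, 0.04 and 0.08 over all genes. These 3 comparisons share the control libraries. The authors' deposited table called 8, 9 and 10 members in K, N and P deficiency, beside 5.57%, 11.1% and 10.7% of the genes to which it gave an adjusted p. Of the 39 member calls, 19 held in every fit that left out a single library, 3 of 6 in K deficiency, 9 of 17 in N deficiency and 7 of 16 in P deficiency. Without control 4_6 the counts were 2 higher and 3 lower in K deficiency, 6 and 8 in N deficiency, and 6 and 6 in P deficiency; without K deficiency 1_3 they were 2 and 2 in K deficiency. Over all genes fewer were called as well: 5.85%, 17.4% and 15.3% in K, N and P deficiency without control 4_6, and 4.96% in K deficiency without K deficiency 1_3. Beside each member that follows stand the libraries whose removal ended its call. A fit of only the 6 libraries compared also ended the calls of umc1588 in K deficiency, of EREB156, EREB27, EREB58, EREB71, LOC100281797 and LOC103629196 in N deficiency, and of DBP1c, EREB27, LOC100193143, LOC100281323 and LOC100282449 in P deficiency. With no filter on low values except an FPKM above 0 in 1 library, EREB27, EREB58, LOC100280796, LOC100281797 and LOC103629196 in N deficiency and EREB156 and EREB27 in P deficiency fell short of the threshold.

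**Figure D3:**
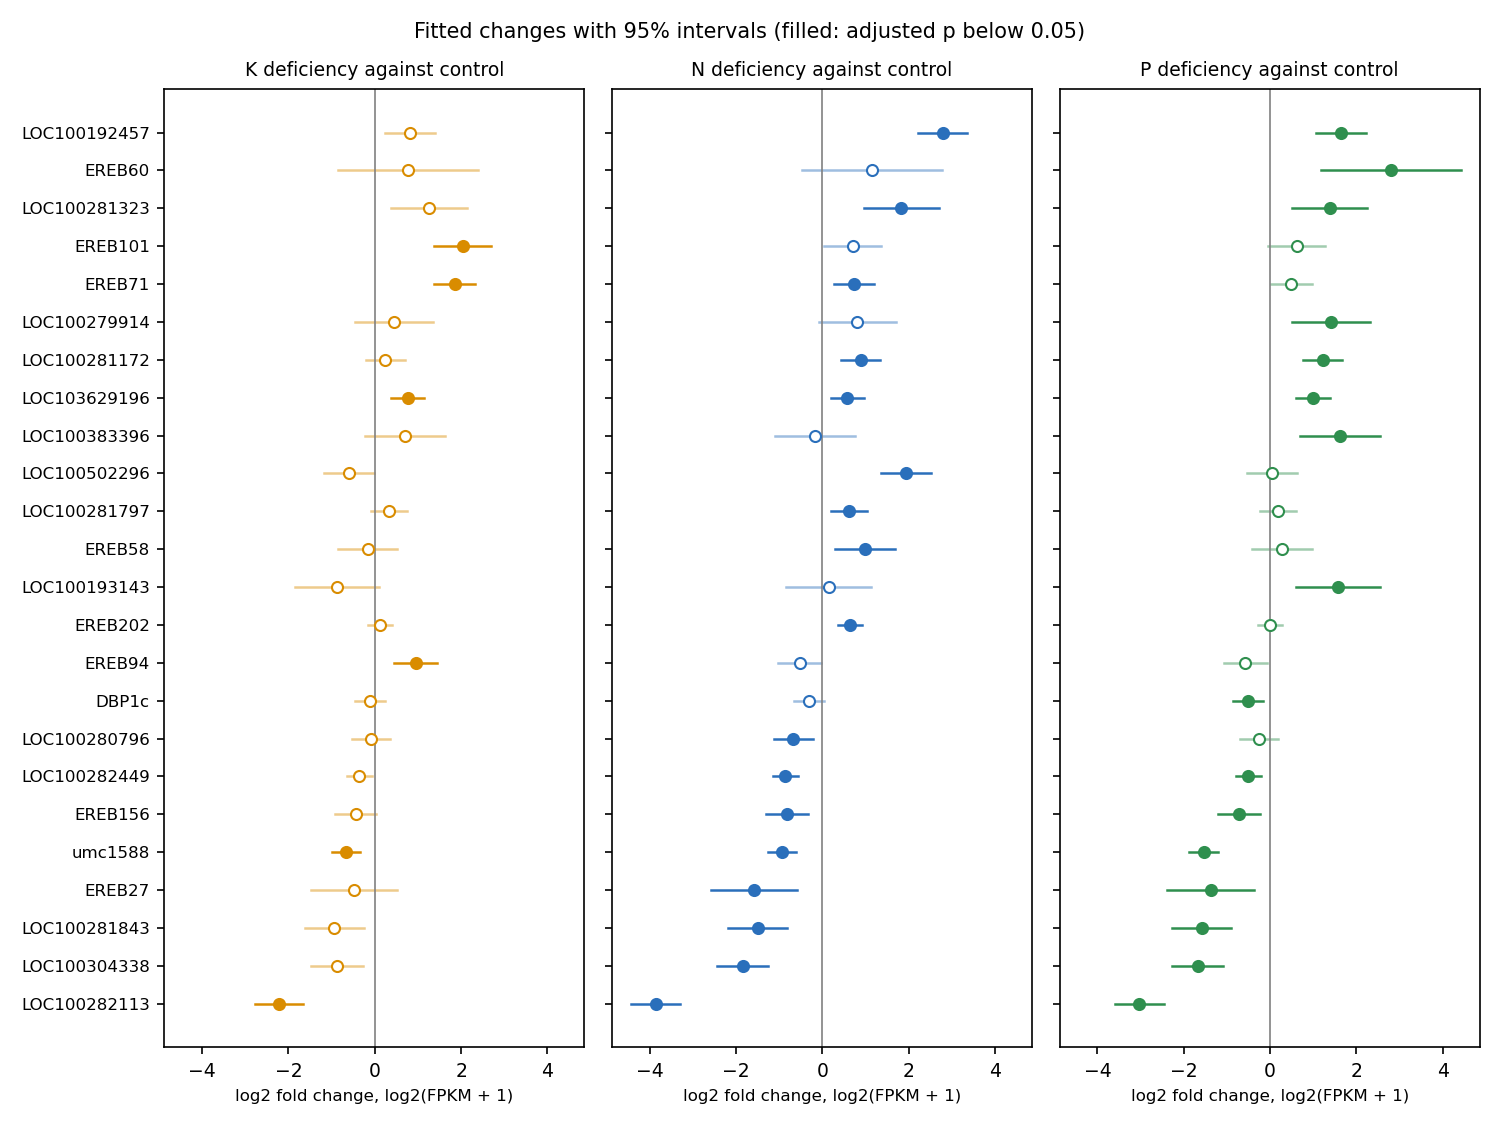
Log2 fold change on the log2(FPKM + 1) scale with its 95% interval for the 22 factors and 2 ethylene-responsive proteins (rows) called in at least 1 deficiency against the control; filled points have an adjusted p below 0.05. LOC100282113 lies at the lower end in all 3 panels, EREB101 and EREB71 at the upper end in K deficiency and LOC100192457 in N deficiency.

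The largest rise of a factor in N deficiency was in LOC100192457, described only as of the AP2/EREBP superfamily. Its values were 10.8, 20.9 and 18.6 FPKM in the control and 31.5, 32 and 25 in K deficiency. Under N deficiency the libraries had 119, 147 and 93.1, and under P deficiency 39.6, 66.2 and 55.6. All N and P deficient libraries lay above all control libraries. The mean rose 7.14-fold in N deficiency (log2 2.79 ± 0.26, adjusted p = 3e-05) and 3.21-fold in P deficiency (log2 1.64 ± 0.26, adjusted p = 0.00157); in K deficiency the log2 fold change was 0.82 ± 0.26 (adjusted p = 0.0794). Compared directly, the level was higher in N than in K deficiency (log2 1.97 ± 0.26, adjusted p = 0.000834) and than in P deficiency (log2 1.15 ± 0.26, adjusted p = 0.0195). The latter was lost without N deficiency 1_3 or 4_6 or P deficiency 1_3 or 7_9 (adjusted p 0.0514 to 0.0741).

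LOC100502296, of the same description, had 37.6, 69.7 and 31.7 FPKM in the control and 28.5, 27.2 and 30.2 in K deficiency. In N deficiency its values were 179.7, 158 and 170.5, and in P deficiency 33.7, 44.9 and 60.1. It was 3.66-fold higher in N deficiency than in the control (log2 1.93 ± 0.26, adjusted p = 0.000475), with no overlap, while the means in P deficiency and the control were 46.3 ± 13.2 and 46.4 ± 20.5 FPKM (SD, n = 3), with a 95% interval of -0.54 to 0.62 for the log2 fold change. Direct contrasts placed N deficiency above K deficiency (log2 fold change 2.52, adjusted p = 0.00017) and above P deficiency (1.89, adjusted p = 0.00153). In the RefSeq gene table (assembly Zm-B73-REFERENCE-NAM-5.0, used for gene order only) LOC100502296 lies next to LOC100281138, and LOC100192457 lies on its other side with 1 protein-coding gene between. LOC100281138, the most abundant of these genes, did not pass in N deficiency: 514, 418 and 682 FPKM against 539, 546 and 431 in the control (0.07, 95% interval -0.55 to 0.69). Near-identical copies could share reads, and the authors' counting of these genes is not given in the sources used here.

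**Figure D4:**
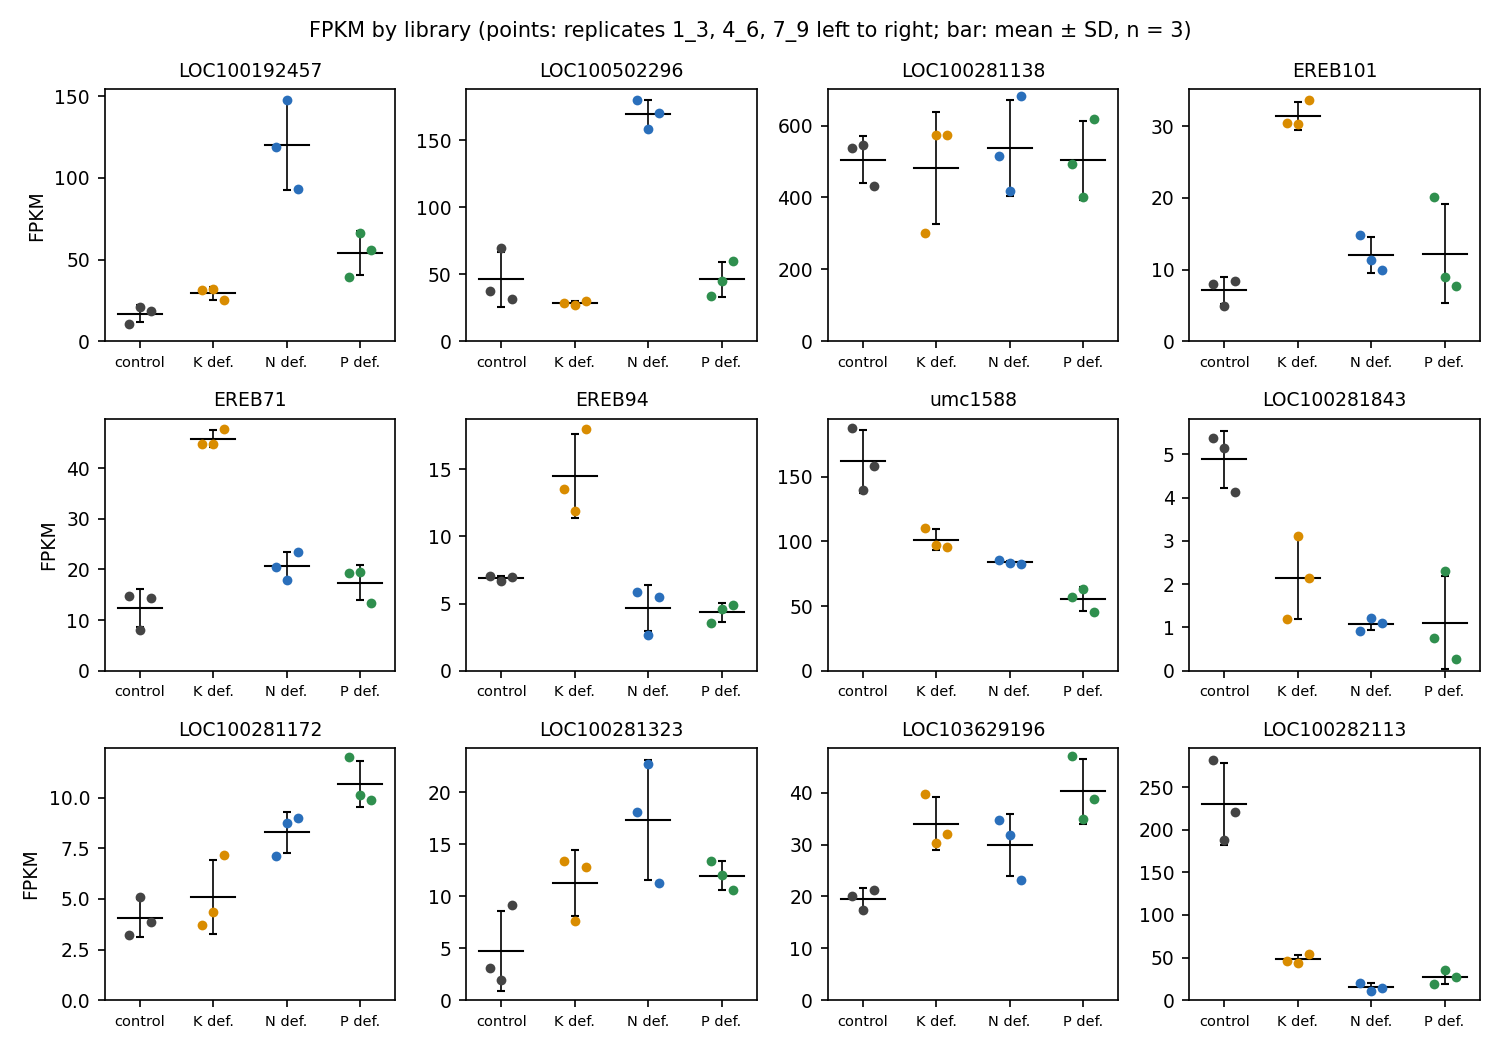
FPKM (vertical axes, from 0) of 12 members in each library, replicates 1_3, 4_6 and 7_9 from left to right in each group, with the mean and SD of 3 libraries. LOC100192457 and LOC100502296 are highest in N deficiency, EREB101, EREB71 and EREB94 in K deficiency, and umc1588 and LOC100282113 are highest in the control.

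In K deficiency 3 superfamily members rose. EREB101 (gene 100216971) had 8.02, 4.88 and 8.4 FPKM in the control and 30.5, 30.3 and 33.7 in K deficiency. The corresponding values were 14.8, 11.3 and 9.99 in N deficiency and 20.2, 8.91 and 7.65 in P deficiency. It was 4.44-fold higher in K deficiency (log2 2.03 ± 0.3, adjusted p = 0.00202), and all 3 K deficient libraries lay above every other library. EREB71 (gene 100274117), which the deposited annotation links to cytokinin and ethylene signalling and to osmotic stress, had 14.7, 8.01 and 14.3 FPKM in the control and 44.8, 44.9 and 47.8 in K deficiency. The N deficient libraries had 20.5, 17.9 and 23.5, and the P deficient ones 19.4, 19.4 and 13.4. It was 3.71-fold higher in K deficiency (log2 1.85 ± 0.21, adjusted p = 0.00044), again above every other library. EREB94 (gene 100272413) had 7.03, 6.69 and 6.96 FPKM in the control and 13.6, 11.9 and 18 in K deficiency. N deficiency gave 5.85, 2.69 and 5.45 FPKM, and P deficiency 3.55, 4.58 and 4.92 FPKM. The K deficient libraries were highest, and the N and P deficient ones lay below the control. It rose 2.1-fold in K deficiency (log2 0.95 ± 0.23, adjusted p = 0.025). That call was lost without control 1_3 or 4_6 or K deficiency 1_3 or 7_9 (adjusted p 0.0628 to 0.0938). The authors' deposited table called EREB94 in K deficiency (adjusted p = 0.01). LOC100273192, an AP2/EREBP gene that the authors' deposited table called higher in K deficiency (adjusted p = 0.0437), had 5.1, 4.21 and 3.04 FPKM against 1.75, 0.762 and 1.76 in the control. By limma it fell short of the threshold (log2 1.09, adjusted p = 0.06). In N and P deficiency EREB94 stood at -0.53 (adjusted p = 0.131) and -0.57 (adjusted p = 0.0897).

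Direct contrasts set these genes apart between deficiencies. N deficiency was lower than K deficiency by limma for EREB94 (log2 fold change -1.48, adjusted p = 0.00211), EREB71 (-1.12, adjusted p = 0.0076) and EREB101 (-1.33, adjusted p = 0.0182). P deficiency was lower than K deficiency for EREB94 (-1.52, adjusted p = 0.00341), EREB71 (-1.36, adjusted p = 0.00462) and EREB101 (-1.41, adjusted p = 0.0169). The contrasts of EREB101 were lost without K deficiency 1_3 or 7_9 or N deficiency 4_6 or 7_9 (adjusted p 0.0532 to 0.0672) and without K deficiency 7_9 or P deficiency 7_9 (adjusted p 0.0577 to 0.0662). In all, 10 of 82 tested members differed between N and K deficiency (9.81% of all genes did), 7 between P and K deficiency (9.23%) and 5 between N and P deficiency (11.3%). The fit of only the 6 libraries compared ended the N against P calls of EREB202, LOC100383396 and umc1588, the N against K calls of EREB202, EREB58 and LOC100304338, and the P against K call of cl15281_1(600). EREB71 also rose 1.67-fold in N deficiency (adjusted p = 0.0348). That call was lost without control 4_6 or N deficiency 1_3, 4_6 or 7_9 (adjusted p 0.052 to 0.098), and its adjusted p in the authors' deposited table was 0.108.

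umc1588 (gene 100279803), described as AP2-EREBP transcription factor 160 and named EREB160 in RefSeq, fell in all 3 deficiencies. Its values were 188, 139.9 and 158 FPKM in the control and 111, 97.5 and 95.5 in K deficiency. It stood at 85.3, 83.4 and 82.6 in N deficiency and at 57.2, 63.3 and 45.3 in P deficiency. No deficient library reached the lowest control library. The decrease was 2.93-fold in P deficiency (log2 -1.54 ± 0.15, adjusted p = 5.86e-05), 1.93-fold in N deficiency (log2 -0.93 ± 0.15, adjusted p = 0.00138) and 1.6-fold in K deficiency (log2 -0.67 ± 0.15, adjusted p = 0.02). The K deficiency call was lost without control 1_3 or K deficiency 4_6 or 7_9 (adjusted p 0.0652 to 0.0881), and was made in the authors' deposited table (adjusted p = 0.00978). P deficiency lay below K deficiency (log2 fold change -0.87, adjusted p = 0.00709), and N deficiency above P deficiency (0.6, adjusted p = 0.0286, lost without N deficiency 1_3, 4_6 or 7_9 or P deficiency 1_3 or 7_9 (adjusted p 0.0661 to 0.104)). EREB27 (gene 100280370), annotated to jasmonic and salicylic acid response, had 38.8, 73 and 18.7 FPKM in the control and 15.9, 35.6 and 33.2 in K deficiency. Under N deficiency the libraries had 7.64, 15.5 and 14, and under P deficiency 10.03, 15.7 and 16.9. Its control libraries lay far apart, with 4_6 highest and 7_9 lowest. The calls of EREB27 as lower in N deficiency (log2 -1.59 ± 0.46, adjusted p = 0.0315) and in P deficiency (log2 -1.38 ± 0.46, adjusted p = 0.0488) were lost without control 1_3 or 4_6 or N deficiency 1_3, 4_6 or 7_9 (adjusted p 0.0508 to 0.115) and without control 1_3 or 4_6 or P deficiency 1_3, 4_6 or 7_9 (adjusted p 0.0734 to 0.164), and in the authors' deposited table (adjusted p = 0.263 and 0.271). In P deficiency EREB27 was also lost under median-ratio scaling and at pseudocounts of 0.1 and 10.

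In P deficiency 4 superfamily members rose that did not pass in N or K deficiency against the control. EREB60 (gene 100384337) and LOC100279914, both annotated to the synthesis of cutin, the polymer of the plant surface, had low levels in the control. EREB60 had 0.697, 1.13 and 1.61 FPKM in the control and 1.18, 9.94 and 0.969 in K deficiency. In N deficiency its values were 7.63, 2.13 and 2.75, and in P deficiency 3.97, 29.7 and 19.6. LOC100279914 had 1.08, 1.34 and 1.38 FPKM in the control and 0.861, 2.89 and 2.99 in K deficiency. The corresponding values were 5.36, 1.98 and 2.3 in N deficiency and 2.32, 8.09 and 6.29 in P deficiency. In both genes every P deficient library lay above every control library, and P deficiency 1_3 was the lowest of its group. The rise was 15.5-fold for EREB60 (log2 2.79 ± 0.74, adjusted p = 0.0212) and 4.4-fold for LOC100279914 (log2 1.42 ± 0.41, adjusted p = 0.03). EREB60 was lost without control 1_3 or 4_6 or P deficiency 4_6 or 7_9 (adjusted p 0.0532 to 0.079), and LOC100279914 without control 1_3 or 4_6 or P deficiency 4_6 or 7_9 (adjusted p 0.0674 to 0.0978). Neither gene passed by limma in a direct contrast of P deficiency with N or K deficiency. In both, K deficiency 4_6 and N deficiency 1_3 lay above P deficiency 1_3, so the rise is not shown to be particular to P deficiency.

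LOC100383396, annotated to root development and to the cellular response to potassium, had 1.74, 1.92 and 1.2 FPKM in the control and 1.95, 5.88 and 2.7 in K deficiency. The N deficient libraries had 2.1, 0.704 and 1.33, and the P deficient ones 2.93, 11.1 and 9.93. The P deficient libraries lay above the control libraries. It rose 4.93-fold in P deficiency (log2 1.63 ± 0.42, adjusted p = 0.02), a call lost without control 1_3 or P deficiency 4_6 or 7_9 (adjusted p 0.0595 to 0.0732). K deficiency 4_6 was also high, and the K deficiency comparison gave 0.7 (95% interval -0.23 to 1.63). N deficiency was lower than P deficiency (log2 -1.8 ± 0.42, adjusted p = 0.0229), lost without N deficiency 4_6 or 7_9 or P deficiency 4_6 or 7_9 (adjusted p 0.0539 to 0.0825). LOC100193143, annotated to anoxia, had 4.88, 21.3 and 5.88 FPKM in the control and 3.61, 6.52 and 3.21 in K deficiency. N deficiency gave 6.57, 11.4 and 12 FPKM, and P deficiency 26.1, 22.2 and 36.6 FPKM. Control 4_6 lay well above the other control libraries, and all P deficient libraries lay above it. The gene rose 2.65-fold in P deficiency (log2 1.57 ± 0.45, adjusted p = 0.028), lost without control 1_3 or 7_9 or P deficiency 1_3 or 7_9 (adjusted p 0.0642 to 0.117), and was higher in P than in K deficiency (log2 2.45 ± 0.45, adjusted p = 0.00905). By limma neither the P against K contrast of LOC100383396 nor the N against P contrast of LOC100193143 passed. In the authors' deposited table LOC100279914, LOC100383396 and LOC100193143 did not pass in P deficiency (adjusted p = 0.0542, 0.0705 and 0.0882), and EREB60 did (adjusted p = 0.0448). One further member, EREB58 (gene 100384381), was called higher in N deficiency at 0.378, 3.03 and 1.82 FPKM against 0.0809, 0.242 and 0.505 in the control, levels that overlap (adjusted p = 0.0486). Its call was lost without control 1_3, 4_6 or 7_9 or N deficiency 4_6 or 7_9 (adjusted p 0.0557 to 0.174), at both other pseudocounts, and in the authors' deposited table, where its mean normalised count in the control was 3.21. In EREB58 N deficiency also exceeded K deficiency (adjusted p = 0.0409). That call was lost without K deficiency 1_3, 4_6 or 7_9 or N deficiency 4_6 or 7_9 (adjusted p 0.085 to 0.139). cl15281_1(600) (gene 100280468), an AP2-EREBP factor, passed only as higher in P than in K deficiency (8.16, 3.63 and 4.38 against 1.28, 2.29 and 2.71 FPKM, log2 1.01 ± 0.29, adjusted p = 0.0489), lost without K deficiency 1_3, 4_6 or 7_9 or P deficiency 1_3 or 7_9 (adjusted p 0.07 to 0.151).

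All 12 DREB genes were tested. None passed in K deficiency (4 had an unadjusted p below 0.05 by limma, and 0 passed in the authors' deposited table), 1 rose and 2 fell in N deficiency, and 1 rose and 3 fell in P deficiency, with a median log2 fold change of -0.09, -0.08 and -0.1. In N and P deficiency 25% and 33.33% were thus called, beside 19.0% and 23.4% of all tested genes (8.72% in K deficiency). LOC100281323, described as DREB 1B, had 3.13, 1.95 and 9.14 FPKM in the control and 13.4, 7.61 and 12.8 in K deficiency. It stood at 18.1, 22.7 and 11.2 in N deficiency and at 13.4, 12.1 and 10.6 in P deficiency. All N and P deficient libraries lay above the control libraries, of which 7_9 was highest. It rose 3.66-fold in N deficiency (log2 1.83 ± 0.4, adjusted p = 0.00827) and 2.53-fold in P deficiency (log2 1.38 ± 0.4, adjusted p = 0.0301), where the call was lost without control 1_3 or 4_6 or P deficiency 1_3, 4_6 or 7_9 (adjusted p 0.0603 to 0.109). The authors' deposited table called LOC100281323 in P deficiency (adjusted p = 0.0101). LOC100281843, described as DREB 1D, moved the other way: 5.38, 5.14 and 4.13 FPKM in the control and 1.2, 3.12 and 2.15 in K deficiency. Under N deficiency the libraries had 0.925, 1.22 and 1.09, and under P deficiency 0.766, 2.31 and 0.266. No deficient library reached the control libraries, and the gene fell 4.52-fold in N deficiency (log2 -1.5 ± 0.31, adjusted p = 0.00656) and 4.39-fold in P deficiency (log2 -1.59 ± 0.31, adjusted p = 0.00545), with -0.94 in K deficiency (adjusted p = 0.092).

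EREB156 (gene 100280932), a DRE-binding protein, had 23.4, 24.6 and 16.8 FPKM in the control and 13.9, 13.3 and 19.7 in K deficiency. In N deficiency its values were 8.97, 11.1 and 16, and in P deficiency 11.7, 11.6 and 14.6. No N or P deficient library reached the control libraries. It fell in N deficiency (log2 -0.81 ± 0.22, adjusted p = 0.0253) and P deficiency (log2 -0.72 ± 0.22, adjusted p = 0.0377). These calls were lost without control 1_3 or 4_6 or N deficiency 1_3 or 4_6 (adjusted p 0.0773 to 0.0949) and without control 1_3 or 4_6 or P deficiency 1_3, 4_6 or 7_9 (adjusted p 0.054 to 0.125). DBP1c (gene 732788; DREB2A among its RefSeq synonyms), of the class that in Arabidopsis answers drought, had 20.6, 13.1 and 18.4 FPKM in the control and 11.9, 12.8 and 10.7 in P deficiency. It fell 1.47-fold there (log2 -0.5 ± 0.16, adjusted p = 0.0391), lost without control 1_3 or 7_9 or P deficiency 1_3 or 7_9 (adjusted p 0.0871 to 0.157). In the authors' deposited table EREB156 in both deficiencies (adjusted p = 0.0704 and 0.0518) and DBP1c (adjusted p = 0.0878) did not pass. The abundant DREB genes did not pass: DBP4 (gene 100384479) ranged from 38.5 to 212 FPKM over the 12 libraries (median 119.6), EREB192 (gene 103649841) from 86.8 to 147 FPKM over the 12 libraries (median 122) and LOC100281239 from 56.8 to 199 FPKM over the 12 libraries (median 104).

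Dehydrin and late embryogenesis abundant (LEA) genes, a class that holds known targets of DREB proteins, were lower in the deficient groups. Of 22 tested, 10 fell and 2 rose in K deficiency, 10 fell and 1 rose in N deficiency, and 11 fell and 0 rose in P deficiency, where 3.89%, 9.33% and 10.4% of all tested genes fell. Their summed level was 6738 to 11110 FPKM in the control libraries and 1426 to 1998 in the deficient ones, and their part in the values of the factors was not tested. The median log2 fold change of the list was -0.39, -0.46 and -0.36. dhn1 (gene 542373), dehydrin 1, alone had 7446, 5058 and 4042 FPKM in the control and 283, 163 and 418 in K deficiency. The corresponding values were 51.9, 7.45 and 18.1 in N deficiency and 139, 88.3 and 46.6 in P deficiency. It fell in all 3 deficiencies (log2 -4.31, -8.03 and -5.99, adjusted p = 0.00151, 7.59e-06 and 7.52e-05). LOC103641198, an 11 kDa LEA protein, fell from 125 ± 49.2 FPKM in the control to at most 2.68 FPKM on average in a deficient group (n = 3, limma adjusted p = 0.000104, 8.4e-06 and 1.8e-05). LOC100286287, a LEA protein of the Lea14-A type, had 236 ± 60.6 FPKM in the control (SD, n = 3) and 13.6 ± 7.14, 3.05 ± 0.786 and 7.32 ± 1.64 FPKM with K, N and P deficiency. LOC100279027, described as dehydrin Xero 1, had 8.43 ± 1.75 FPKM in the control and at most 0.654 FPKM on average in a deficient group. The highest value in any library was 22.7 FPKM for LOC100281323 and 5.38 FPKM for LOC100281843.

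Among 24 tested ethylene-responsive factors none passed in K deficiency (3 had an unadjusted p below 0.05 by limma, and 0 passed in the authors' deposited table), 3 rose and 2 fell in N deficiency, and 1 rose and 1 fell in P deficiency. That was 20.83% and 8.33% in N and P deficiency, beside 19.0% and 23.4% of all tested genes (8.72% in K deficiency). EREB202 (gene 100283060), described as an ethylene response factor, had 61.3, 56.6 and 58.8 FPKM in the control and 67.8, 63.7 and 61.9 in K deficiency. The N deficient libraries had 102, 99 and 78, and the P deficient ones 54.5, 65.3 and 57.8. It rose 1.58-fold in N deficiency (log2 0.64 ± 0.13, adjusted p = 0.00507), with all N deficient libraries above every other library, and was higher there than in P deficiency (adjusted p = 0.0113) and K deficiency (adjusted p = 0.0288, lost without K deficiency 1_3, 4_6 or 7_9 or N deficiency 1_3 or 4_6 (adjusted p 0.0591 to 0.11)). In the authors' deposited table EREB202 stood just outside the threshold in N deficiency (adjusted p = 0.0562). LOC100281172, ethylene-responsive transcription factor 2, had 3.23, 5.11 and 3.86 FPKM in the control and 3.74, 4.38 and 7.17 in K deficiency. N deficiency gave 7.11, 8.74 and 9.01 FPKM, and P deficiency 12, 10.2 and 9.89 FPKM. All N and P deficient libraries lay above the control libraries here too. It rose 2.63-fold in P deficiency (log2 1.22 ± 0.21, adjusted p = 0.00235) and 2.04-fold in N deficiency (log2 0.89 ± 0.21, adjusted p = 0.0118). The latter was lost without control 1_3 (adjusted p = 0.0567) and in the authors' deposited table (adjusted p = 0.0714). It was higher in P than in K deficiency (log2 0.97 ± 0.21, adjusted p = 0.0163), lost without K deficiency 1_3 or 4_6 or P deficiency 1_3 (adjusted p 0.0546 to 0.0599).

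LOC100282449, an EREBP-4 like protein, fell in both of these deficiencies. Its values were 38.8, 29.8 and 39.2 FPKM in the control and 27.5, 26.1 and 29.1 in K deficiency. It stood at 19.3, 20.6 and 17.9 in N deficiency and at 26.1, 26.5 and 22.1 in P deficiency. All 9 deficient libraries were below the control libraries. The decrease was 1.87-fold in N deficiency (log2 -0.86 ± 0.13, adjusted p = 0.000957) and 1.45-fold in P deficiency (log2 -0.51 ± 0.13, adjusted p = 0.0192). The latter was lost without control 1_3 or P deficiency 7_9 (adjusted p 0.0754 to 0.0824) and in the authors' deposited table (adjusted p = 0.106). N deficiency was lower than K deficiency for LOC100282449 (adjusted p = 0.036), a call that each of the 6 fits without a library ended (adjusted p 0.064 to 0.117). A pair of genes described as ethylene-responsive transcription factor 3, in Arabidopsis and tobacco a repressor class, were called in N deficiency, one higher and the other lower. LOC100281797 had 302, 186 and 274 FPKM in the control and 401, 358 and 388 in N deficiency (log2 0.62 ± 0.19, adjusted p = 0.0432). LOC100280796 had 20.4, 21.4 and 16.6 FPKM in the control and 11.2, 12.4 and 11.8 in N deficiency (log2 -0.67 ± 0.2, adjusted p = 0.0382). LOC100281797 was lost without control 4_6 or N deficiency 1_3, 4_6 or 7_9 (adjusted p 0.0822 to 0.125), LOC100280796 without control 1_3 or 4_6 or N deficiency 1_3, 4_6 or 7_9 (adjusted p 0.0772 to 0.119), LOC100280796 also under median-ratio scaling, and both in the authors' deposited table (adjusted p = 0.0743 and 0.13).

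Of the 3 AP2-type genes 1 changed. LOC103629196, described as TOE3, had 20.1, 17.4 and 21.3 FPKM in the control and 39.8, 30.3 and 32 in K deficiency. Under N deficiency the libraries had 34.8, 31.8 and 23.2, and under P deficiency 47.1, 34.9 and 38.8. All 9 deficient libraries lay above the control libraries. It rose 2.06-fold in P deficiency (log2 0.997 ± 0.18, adjusted p = 0.00291), 1.74-fold in K deficiency (log2 0.76 ± 0.18, adjusted p = 0.0216) and 1.53-fold in N deficiency (log2 0.57 ± 0.18, adjusted p = 0.0418). The K deficiency call was lost without control 1_3 or 4_6 or K deficiency 1_3 or 7_9 (adjusted p 0.051 to 0.0853), the N deficiency call without control 1_3, 4_6 or 7_9 or N deficiency 1_3 or 4_6 (adjusted p 0.0529 to 0.144) and at a pseudocount of 10, and in the authors' deposited table only the call in P deficiency passed (adjusted p = 0.00428, with 0.0541 in K and 0.166 in N deficiency). The WRI1 genes EREB85 (gene 100217237) and EREB20 (gene 100193098) ranged from 5.78 to 12.3 FPKM over the 12 libraries (median 8.88) and from 2.79 to 5.28 FPKM over the 12 libraries (median 4.06), and neither passed.

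On the log2(FPKM + 1) scale the largest change among the tested members was in a gene described as an ethylene-responsive protein and not as a transcription factor. In ratios of mean FPKM the rise of EREB60 in P deficiency was of like size, and that scale of the test understates genes of low level such as EREB60 and EREB26. LOC100282113, annotated to AMP binding and stress response, had 282, 188 and 220.3 FPKM in the control and 46.3, 44.1 and 54.1 in K deficiency. In N deficiency its values were 20.3, 10.3 and 14.7, and in P deficiency 19.5, 35.6 and 27.7. Every deficient library lay far below the control libraries. It fell 15.2-fold in N deficiency (log2 -3.87 ± 0.26, adjusted p = 3.16e-06), 8.34-fold in P deficiency (log2 -3.03 ± 0.26, adjusted p = 2.24e-05) and 4.78-fold in K deficiency (log2 -2.22 ± 0.26, adjusted p = 0.000445), and N deficiency was lower than K deficiency (log2 -1.65 ± 0.26, adjusted p = 0.00243). LOC100304338 had 8.51, 6.7 and 7.04 FPKM in the control and 2.93, 2.77 and 5.44 in K deficiency. The corresponding values were 0.556, 2.22 and 1.53 in N deficiency and 1.88, 1.22 and 1.81 in P deficiency. No deficient library reached the control libraries. It fell 5.17-fold in N deficiency (log2 -1.85 ± 0.27, adjusted p = 0.000761) and 4.53-fold in P deficiency (log2 -1.68 ± 0.27, adjusted p = 0.00177), with -0.88 in K deficiency (adjusted p = 0.0721), where the authors' deposited table called it (adjusted p = 0.0264). Its difference between N and K deficiency (adjusted p = 0.0453) was lost without K deficiency 1_3, 4_6 or 7_9 or N deficiency 1_3 or 7_9 (adjusted p 0.0537 to 0.158) and under each other processing alternative except a stricter filter. These 2 genes are neighbours in RefSeq with no protein-coding gene between and share the synonym GRMZM2G059799, so reads may be split between them and they may not be separate observations. LOC100285281, the other gene of this description, stayed between 0.215 and 1.99 FPKM and did not pass. Of the 5 rows that share only letters with the search terms, 0 passed in any comparison by limma, and 2 had an unadjusted p below 0.05 in P deficiency; 0 passed in the authors' deposited table.

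Genes upstream of these factors were read from text lists chosen with results of these data known. Of 11 tested genes of ethylene synthesis, 1 rose and 1 fell in K deficiency, 2 rose and 1 fell in N deficiency, and 0 rose and 1 fell in P deficiency, with medians of -0.31, 0.15 and -0.09 on the log2 scale. These are 18.18%, 27.27% and 9.09% in K, N and P deficiency, beside 8.72%, 19.0% and 23.4% of all tested genes. acs7 (gene 100279981), an ACC synthase that makes the ethylene precursor, had 44.2, 49.6 and 44.7 FPKM in the control and 84.8, 105 and 106 in K deficiency. The N deficient libraries had 68.3, 85.9 and 88.2, and the P deficient ones 46.6, 45.8 and 38.3. It rose 2.13-fold in K deficiency (log2 1.07 ± 0.14, adjusted p = 0.00104) and 1.75-fold in N deficiency (log2 0.79 ± 0.14, adjusted p = 0.00298), with -0.09 in P deficiency (95% interval -0.4 to 0.23). Among ACC oxidases, which release ethylene, LOC100280566 rose in N deficiency from 3.96 ± 0.647 to 12.4 ± 5.18 FPKM (n = 3, limma adjusted p = 0.0118, lost without control 1_3 (adjusted p = 0.051)), and LOC100191321 fell from 146 ± 61.7 to 50.3 ± 18.5 FPKM (adjusted p = 0.0226, lost without control 1_3 or 4_6 or N deficiency 1_3 or 4_6 (adjusted p 0.0709 to 0.0895)); the authors' deposited table did not call LOC100191321 (adjusted p = 0.126). LOC100285293 fell in K deficiency (adjusted p = 0.0299, lost without control 1_3 or 4_6 or K deficiency 1_3 or 7_9 (adjusted p 0.062 to 0.111)) and in P deficiency (adjusted p = 0.0149, lost without control 1_3 or 4_6 or P deficiency 1_3 (adjusted p 0.0511 to 0.0557)). The authors' deposited table called LOC100285293 in both (adjusted p = 0.00111 and 0.00334) and LOC100280566 in N deficiency (adjusted p = 0.0317). The ACC oxidases ACO31 (gene 542136) and acco20 (gene 542137) did not pass against the control, with 95% intervals in P deficiency of -1.6 to -0.08 and 0.08 to 1.26 on the log2 scale. In direct contrast acco20 was higher in P than in K deficiency (log2 1.04, limma adjusted p = 0.0364). That call was lost without K deficiency 1_3 or 7_9 or P deficiency 4_6 or 7_9 (adjusted p 0.0805 to 0.115). It was also lost under median-ratio scaling and with no filter on low values.

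Of 13 tested receptor and signalling genes 0 passed in K deficiency (0 with an unadjusted p below 0.05 by limma, and 0 passed in the authors' deposited table), 1 rose and 1 fell in N deficiency, and 1 fell in P deficiency. In N and P deficiency 15.38% and 7.69% were thus called, beside 19.0% and 23.4% of all tested genes (8.72% in K deficiency). LOC100274454, an EIN3-like gene described as type 5, had 24.9, 12.7 and 13.7 FPKM in the control and 22.2, 10.8 and 15.3 in K deficiency. N deficiency gave 1.89, 0.783 and 1.11 FPKM, and P deficiency 9.21, 8.7 and 7.79 FPKM. It fell 13.6-fold in N deficiency (log2 -2.97 ± 0.29, adjusted p = 3.71e-05); the decrease in P deficiency (adjusted p = 0.0497) was lost without control 1_3 or 4_6 or P deficiency 1_3, 4_6 or 7_9 (adjusted p 0.0505 to 0.19). It was also lost with no filter on low values, at a pseudocount of 0.1, in the fit of only the 6 libraries compared (adjusted p 0.0607 to 0.0728) and in the authors' deposited table (adjusted p = 0.161). LOC100285672, described as EIN3-like 1, rose from 83.8 ± 12.7 to 127 ± 17.9 FPKM in N deficiency (n = 3, limma adjusted p = 0.0183), lost without control 1_3 or 7_9 or N deficiency 7_9 (adjusted p 0.0564 to 0.0609). That call was also lost under median-ratio scaling, in the fit of only the 6 libraries compared (adjusted p 0.0608 to 0.0668) and in the authors' deposited table (adjusted p = 0.103). The receptor etr2 (gene 541627) did not pass, with intervals of -0.74 to 0.15, -0.16 to 0.73 and -0.27 to 0.62 in K, N and P deficiency. LOC100276634, a reversion-to-ethylene sensitivity protein, and the EIN3-like genes LOC100285594 and umc1357 (gene 100279789) did not pass against the control either. Their smallest adjusted p by limma in a deficiency was 0.0731, 0.088 and 0.0823. Compared directly, LOC100276634 was higher in N than in K deficiency (log2 0.9, limma adjusted p = 0.0147) and in P than in K deficiency (0.81, adjusted p = 0.0273). The former was lost without K deficiency 7_9 or N deficiency 4_6 or 7_9 (adjusted p 0.0518 to 0.0612). The latter was lost without K deficiency 4_6 or 7_9 or P deficiency 1_3 or 7_9 (adjusted p 0.0672 to 0.0927).

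Further lists held gene classes in which ERF proteins are known to have targets. Of 37 tested pathogenesis-related, chitinase and osmotin genes, 2 rose and 4 fell in K deficiency, 7 rose and 10 fell in N deficiency, and 3 rose and 9 fell in P deficiency, against 4.83% higher and 3.89% lower, 9.63% and 9.33%, and 13.0% and 10.4% of all genes. Under median-ratio scaling those shares of all genes were 4.24% higher and 5.1% lower in K deficiency, 9.85% and 10.7% in N deficiency, and 12.9% and 13.0% in P deficiency. The counts of the list are from the main fit and are not given under that scaling, so they are not compared with these shares. LOC100281817, described as endochitinase A, had 43, 27.6 and 22.7 FPKM in the control and 1.58, 0.902 and 1.37 in K deficiency. It stood at 0.875, 1.04 and 0.689 in N deficiency and at 0.989, 1.19 and 0.757 in P deficiency. The control overlapped with no deficient library. Another endochitinase A, LOC100283098, fell from 305 ± 79.2 FPKM in the control to 20.4 ± 14.1 in N deficiency (n = 3, limma adjusted p = 2.86e-05). LOC100384000, endochitinase EP3, had 10.9, 6.88 and 5.04 FPKM in the control and 0.547, 0.112 and 0 in K deficiency. Under N deficiency the libraries had 0.539, 0 and 0, and under P deficiency 0, 0 and 0. It passed as lower in each (adjusted p = 0.000151, 2.57e-05 and 2.24e-05). The osmotin-like LOC100280707 fell in K, N and P deficiency (log2 -1.72, -1.84 and -1.21, limma adjusted p = 0.00279, 0.000767 and 0.0102), with 0.0507 for P deficiency in the authors' deposited table. LOC100276695, of the same description, fell in N and P deficiency (log2 -3.62 and -4.04, adjusted p = 0.000355 and 0.000215). Of 10 genes of low-oxygen metabolism, in Arabidopsis a target class of the RAP2-2 group, 1 fell in K deficiency, 1 rose and 2 fell in N deficiency, and 3 rose and 1 fell in P deficiency. Called together were 10%, 30% and 40% in K, N and P deficiency, beside 8.72%, 19.0% and 23.4% of all tested genes. pdc2 (gene 542651), a pyruvate decarboxylase, had 37.8, 31.9 and 24 FPKM in the control and 12.7, 11.1 and 13.4 in K deficiency. In N deficiency its values were 5.62, 3.27 and 6.38, and in P deficiency 6.29, 7.32 and 9.69. It fell in all 3 deficiencies (adjusted p = 0.00649, 3.17e-05 and 0.000275). Hb2 (gene 732720), a haemoglobin, had 53.2, 72.3 and 58.2 FPKM in the control and 112, 103 and 91.1 in K deficiency. The corresponding values were 23.6, 48.4 and 29.7 in N deficiency and 187, 191 and 193 in P deficiency. It rose in P deficiency (adjusted p = 0.000572) and fell in N deficiency (adjusted p = 0.0164, lost without control 4_6 or N deficiency 1_3 or 7_9 (adjusted p 0.05 to 0.0598)). In N deficiency Hb2 was also lost in the fit of only the 6 libraries compared and in the authors' deposited table (adjusted p = 0.0538). adh2 (gene 542364), alcohol dehydrogenase 2, had 22.2, 63 and 32.4 FPKM in the control and 39.3, 51.1 and 45 in K deficiency. The N deficient libraries had 129, 169 and 113, and the P deficient ones 67.8, 59.9 and 132. It rose in N deficiency (log2 1.89 ± 0.36, adjusted p = 0.00402), a call kept in every fit without 1 library, and in P deficiency (log2 1.16 ± 0.36, adjusted p = 0.0394). The P deficiency call was lost without control 1_3 or 7_9 or P deficiency 1_3 or 7_9 (adjusted p 0.0619 to 0.156), under median-ratio scaling, with no filter on low values and in the fit of only the 6 libraries compared (adjusted p 0.0577 to 0.11), and in the authors' deposited table (adjusted p = 0.35). pdc3 (gene 541919), another pyruvate decarboxylase, rose in P deficiency from 87.9 ± 49.96 to 183 ± 43.4 FPKM (n = 3, limma adjusted p = 0.0252). That call was lost without control 1_3 or 7_9 or P deficiency 1_3 or 7_9 (adjusted p 0.0538 to 0.1), in the fit of only the 6 libraries compared and in the authors' deposited table (adjusted p = 0.151). The haemoglobin LOC541815 did not pass, with a smallest adjusted p by limma of 0.127. pco095978 (gene 100282307), the member described as RAP2-2, had 21.9, 33.1 and 25.3 FPKM in the control and 34.4, 28.2 and 25.3 in K deficiency. N deficiency gave 35.9, 35 and 30.8 FPKM, and P deficiency 22.4, 29.3 and 26.7 FPKM. It did not pass in any comparison.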

How the data were processed

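RNA-seq of maize roots was read from 3 deposited tables, each of 1 deficiency against the control, with 12 libraries in all. The FPKM per library were computed by the authors. The deposited mean normalized counts per group (a signal scaled by library), their ratio (fold change), its log2 value and its p-value come from the authors' DESeq comparison, per the file names. Aligner, genome build, annotation, counting rule and strand use are not stated in the sources used here. Counts per library are not among the values analysed here, so no count test was run; the deposited group means sum to 16996670 to 18290474 normalized counts, and the precision per gene rests on the spread between libraries. No column of per-sample values was left without a sample (0).

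Genes that reached an FPKM of 0.5 in 3 or more of 12 libraries (24311 of 37385) were tested with limma 3.58.1 in R 4.3.3 on log2(FPKM + 1), with all 4 groups in 1 fit, an intensity trend and Benjamini-Hochberg adjustment over all tested genes in each of 6 comparisons; a call is an adjusted p below 0.05. The scripts were tested on simulated data. Python 3.11.15, pandas 2.3.3, numpy 2.4.6 and matplotlib 3.10.9 served for tables and figures. The members and gene lists were chosen with earlier results of these data known. Genes are named by rule: up to 10 factors called higher and 10 called lower in each deficiency by size of change, the 3 most abundant per class, and per pathway list those with the 3 smallest p in each deficiency; the rows not described as AP2/ERF factors are given apart, and ERF1, EREB26, LOC100273192, LOC100280788, LOC100281871, LOC100384725, cl15281_1(600) and pco095978 were added after their values were seen. EREB203 and the root markers nrt2 and nrt2.2 were also named outside this rule. Alternatives were pseudocounts of 0.1 and 10, a filter at FPKM 1, no filter, median-ratio scaling, only the 6 libraries compared, the replicate label as a block, each library left out in turn, and the authors' deposited table. Of the 91 members, 90 matched the RefSeq gene table of assembly Zm-B73-REFERENCE-NAM-5.0, which served for names and gene order only. Sequences and promoter motifs of the members were not analysed here.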

Additional observations from a re-analysis of the deposited data

How the results depend on the processing

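No member's call changed direction under any alternative. In K deficiency the count of members that rose was 4 and became 7 with the replicate block. The count that fell was 2 and became 4 at a pseudocount of 10, 1 in the fit of only the 6 libraries compared and 4 in the authors' deposited table. In N deficiency the count that rose was 9 and became 5 in the fit of the 6 libraries and 3 in the authors' deposited table. In P deficiency 8 rose and 8 fell, against 5 and 5 in the authors' deposited table.

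With each library left out in turn, the counts of members that rose and fell ranged from 2 to 5 and from 1 to 5 in K deficiency, from 5 to 7 and from 5 to 8 in N deficiency, and from 3 to 8 and from 4 to 8 in P deficiency. Over all genes the share called ranged in the same fits from 4.06% to 9.58%, from 11.4% to 18.1% and from 9.86% to 25.9%. Direct contrasts gave 2 to 5 calls between N and P, 6 to 8 between N and K, and 5 to 11 between P and K deficiency, where all genes gave 5.24% to 13.1%, 5.62% to 7.81% and 3.88% to 10.9%. Fewer libraries leave fewer residual degrees of freedom.

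The replicate labels are shared by the groups. Deviations of like-numbered libraries correlated above 0.1 in 10 of 18 pairs (range -0.39 to 0.33). For 4 of 12 libraries the best match carried the same label, and the libraries are taken to share only that label. Under the replicate block the counts were 7 higher and 2 lower in K deficiency, 8 and 7 in N deficiency, and 8 and 8 in P deficiency, with 7, 8 and 9 calls between N and P, N and K, and P and K deficiency. All genes gave 7.97%, 18.7% and 22.9% against the control, and 11.4%, 9.85% and 8.9% in those direct contrasts, under the block. It ended the N deficiency calls of EREB58, LOC100280796 and LOC100281797 (adjusted p 0.0609, 0.0582 and 0.0593), the N against K calls of EREB58, LOC100282449 and LOC100304338 (0.0531, 0.0542 and 0.0591) and the P against K call of cl15281_1(600) (0.0625).

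Over the 61 genes named by rule, 113 values fell short of the threshold when a library was left out and 63 under the other alternatives, of 2558 values in all, while 11 and 11 passed it anew. The 2558 include values of comparisons not called in the main fit, which could not fall short, so they give no share of stable calls. Of the 39 member calls, 19 held in every fit that left out a single library. Median-ratio scaling moved the median of all genes from 0.07 to 0.00 in K deficiency, less elsewhere. Depth per library is unknown, and no count test was run.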
